A study of Drosophila melanogaster with 12 samples.

Results

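The genes described here carry the signal of bone morphogenetic proteins (BMPs) in the germline stem cell niche of Drosophila melanogaster: the ligand genes dpp and gbb, the receptor genes tkv, sax and put, the signal transducer genes Mad and Med, the inhibitor gene Dad and the co-receptor gene dally. They were chosen by name from a fixed list of 9 FlyBase symbols and looked up among the 17559 gene IDs counted in every library. An ID was matched for 8 of the 9, and Med is named only. Polyadenylated RNA was sequenced from gonads dissected at an age of 1 to 3 days from flies kept at 25 °C, with 3 biological replicates in each of 4 groups. The first group was testes of bam mutant males. The second was ovaries of bam mutant females with RNA interference (RNAi) against Sxl, the gene that sets female identity. The third was ovaries of bam mutant females with RNAi against mCherry, a fluorescent protein gene that flies do not have. The last was ovaries of bam mutant females without RNAi. All 12 libraries thus come from bam mutants, the ovaries came from virgin females, and the sources used here do not name the bam alleles or the driver of the RNAi. The labels name 2 questions, how male and female bam gonads differ and how Sxl RNAi changes bam ovaries.

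In the ovary and the testis, somatic niche cells secrete Dpp and Gbb, which bind a complex of the type I receptors Tkv and Sax with the type II receptor Put on the neighbouring germ cells. The receptors phosphorylate Mad, which enters the nucleus with Med and, in germline stem cells, represses transcription of bam, the gene that starts differentiation. Dad is an inhibitory SMAD that the pathway itself induces, and the glypican Dally binds Dpp at the cell surface and is known in the ovary for keeping the signal close to the niche.

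Libraries held between 16152230 and 25097969 reads assigned to genes, and every one of the 8 genes had at least 178 counts in every library. Levels are given in CPM (gene counts per 1000000 assigned reads, scaled by trimmed mean of M values), and log2 fold changes carry their standard error (SE). Each adjusted p is edgeR's quasi-likelihood p after Benjamini-Hochberg adjustment over all genes tested, with 0.05 as the threshold. As a check of the RNAi labels, Sxl stood at 140, 198 and 224 CPM in Sxl RNAi ovaries, against 500, 511 and 534 CPM in mCherry RNAi ovaries (log2 fold change -1.44, SE 0.18, adjusted p = 0.0466). The germ cell genes aub, bgcn, tud and AGO3 summed to between 766 and 1354 CPM in testes and between 1102 and 1310 CPM in bam ovaries, with log2 fold changes between -0.46 and 0.26. Of the 4 testis hub genes listed, upd1 stood at no more than 0.838 CPM in testes and 1.14 CPM in bam ovaries. It was not called between these groups (log2 fold change -0.28, adjusted p = 0.648). Of the others, hh was higher in testes (1.80, adjusted p = 0.00332), and Fas3 and CadN were lower (-1.86 and -2.51). Libraries of one group differed from each other along transcript length. Relative to its group, the median of genes with at least 4000 exon bases minus that of genes with under 2000 was -0.75 (log2) in testis replicate 2 and 0.66 in testis replicate 3. It was -0.40 in mCherry RNAi replicate 2, -0.56 in bam ovary replicate 3 and between -0.15 and 0.31 in the other 8 libraries. Testis replicate 2 also held 1798 CPM of 6 accessory gland genes, against 67.4 and 142 CPM in the other testes and at most 4.06 CPM in bam ovaries.

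Per length, the ligand genes marked the ends of the range, with gbb highest and dpp lowest of the 8 genes in the mean of every group. In RPKM, which is CPM divided by the kilobases of annotated exon, gbb averaged 55.6 ± 17.3 in testes, 64.4 ± 15.0 in Sxl RNAi ovaries, 60.1 ± 8.75 in mCherry RNAi ovaries and 55.2 ± 6.19 in bam ovaries (SD, n = 3 each). The level of dpp averaged 3.11 ± 0.514 RPKM in testes, 6.44 ± 1.76 in Sxl RNAi ovaries, 5.92 ± 0.559 in mCherry RNAi ovaries and 4.97 ± 0.835 in bam ovaries. Library by library, dpp was between 0.0357 and 0.0938 of the RPKM of gbb in testes, against 0.0659 to 0.114 in bam ovaries, ranges that overlap. The means of the receptor genes and Mad lay between these ends, at 24.5 to 36.8 RPKM in testes and 26.2 to 39.1 RPKM in bam ovaries. In testis replicate 3, however, sax (40.8 RPKM) was above gbb (38.9 RPKM). Dad averaged 11.8 ± 0.567 RPKM in testes and 8.80 ± 1.75 RPKM in bam ovaries.

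Between these ends the order of the genes differed between testes and bam ovaries, with dally, tkv and Mad moving furthest. From highest to lowest the order was gbb, sax, Mad, put, tkv, Dad, dally and dpp in testes, against gbb, tkv, sax, dally, put, Mad, Dad and dpp in bam ovaries. In bam ovaries tkv (39.1 ± 5.73 RPKM), sax (38.6 ± 1.20) and dally lay close together relative to their spread. The order of these genes differed among the groups of ovaries. The level of dally averaged 8.59 ± 2.17 RPKM in testes, second lowest of the 8 genes, against 42.7 ± 1.89 in Sxl RNAi ovaries, 34.7 ± 7.64 in mCherry RNAi ovaries and 35.7 ± 12 in bam ovaries. Among 10175 genes that passed the filter on low counts over all libraries and had a length, dally was at the 40.9th percentile in testes. In bam ovaries it was at the 77.8th percentile of RPKM. Set against tkv in the same library, dally was at 0.321 to 0.404 of its RPKM in testes. In the 9 ovary libraries this ratio lay between 0.671 and 1.18, above all 3 testes.

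**Figure D1:**
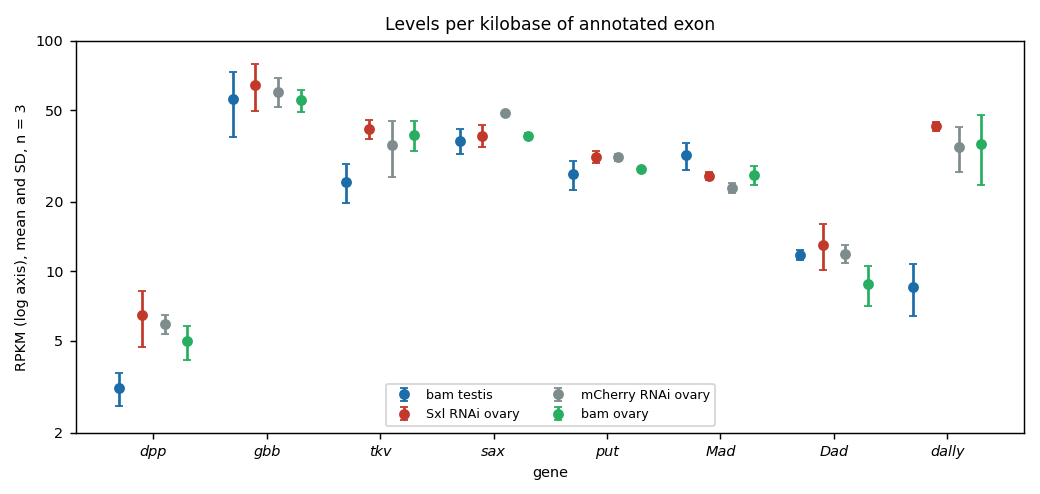
Mean level of each gene in RPKM (CPM per kilobase of annotated exon, log axis), with the SD over 3 libraries, for bam testes, Sxl RNAi ovaries, mCherry RNAi ovaries and bam ovaries. In every group gbb is highest and dpp lowest, and dally stands at 8.59 RPKM in testes against 34.7 to 42.7 RPKM in the 3 groups of ovaries.

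The comparison of bam testes with bam ovaries asked how the pathway differs between male and female gonads mutant for bam. Both dally and dpp were lower in testes by the test, and none of the 8 genes was higher. These 2 of 8 stand beside a background of 32.7% of 9738 genes called in either direction and 16.3% called lower, so the share of the pathway genes called was close to that of all genes. Without testis replicate 1 or 2 or bam ovary replicate 2 the count was 1, dally. Without bam ovary replicate 1 it was again 2, with Dad in place of dpp. The median log2 fold change of the 8 genes was -0.065, against 0.012 for all genes tested. Values of the 2 groups did not overlap for 4 of the 8 genes, against 48.2% of all genes tested.

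The ligand gene dpp (chromosome arm 2L, 2428372 to 2459823 of BDGP6, plus strand) had 16.0, 13.7 and 19.0 CPM in testes, against 30.1, 26.3 and 21.4 CPM in bam ovaries. Every testis lay below every bam ovary, with the highest testis, replicate 3, close to the lowest ovary, replicate 3. That is 1.59-fold lower in testes, with a log2 fold change of -0.67 (SE 0.21) and an adjusted p = 0.0493. This call sat at the threshold and was lost in 8 of 16 alternatives, with adjusted p between 0.0154 and 0.167. Leaving out testis replicate 1 or 2, or bam ovary replicate 1 or 2, gave adjusted p = 0.136, 0.0737, 0.167 and 0.139, and no filter on low counts gave 0.0616. Removing a trend on transcript length moved the fold change to -0.33 (adjusted p = 0.0542). The other ligand gene, gbb (arm 2R), had 92.0, 124 and 65.6 CPM in testes and 85.5, 88.7 and 105 CPM in bam ovaries. The testes spanned the whole range of the ovaries, and the log2 fold change was -0.0056 with a 95% interval of -0.54 to 0.52.

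Of the receptors, tkv had the lower values in testes, while sax and put overlapped. The type I receptor gene tkv (2L, 5219000 to 5271384, minus strand) had 126, 85.6 and 114 CPM in testes, against 190, 186 and 144 CPM in bam ovaries. The groups did not overlap, and the log2 fold change of -0.67 (SE 0.22) missed the threshold with an adjusted p = 0.0551. It passed in 5 of 16 alternatives, with adjusted p between 0.00986 and 0.170. The library kit does not mark strand, and exons of tkv share 54 bases with TpnC25D and 158 bases with CR14033 on the other strand. Those genes averaged 50.1 and 472 counts per library, against 3133 for tkv. Both were higher in testes. TpnC25D averaged 7.91 CPM in testes and 1.02 CPM in bam ovaries (log2 fold change 2.90, adjusted p = 0.0110), and CR14033 averaged 52.0 CPM in testes and 19.4 CPM in bam ovaries (1.41, adjusted p = 0.000646). Their part in the counts of tkv was not tested. The gene of the other type I receptor, sax (arm 2R), had 108, 91.9 and 117 CPM in testes and 109, 115 and 108 CPM in bam ovaries (-0.066 on the log2 scale, 95% interval -0.44 to 0.31). For put, the gene of the type II receptor (3R, 14619030 to 14625703, minus strand), the values were 111, 89.0 and 118 CPM in testes and 113, 112 and 108 CPM in bam ovaries. Its log2 fold change was -0.063 with a 95% interval of -0.47 to 0.34.

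The SMAD genes had higher means in testes, without passing the test. Mad (2L, 3146056 to 3159643, minus strand), the transducer, had 112, 93.0 and 122 CPM in testes and 96.6, 91.2 and 80.0 CPM in bam ovaries. Testis replicate 2 lay within the range of the ovaries, and the log2 fold change was 0.29 (SE 0.17, adjusted p = 0.252). The inhibitor gene Dad (3R, 17054007 to 17070408, plus strand) had 48.7, 44.9 and 44.9 CPM in testes, against 42.2, 31.4 and 29.5 CPM in bam ovaries. All testes were above all ovaries, and the log2 fold change of 0.42 (SE 0.17) had an adjusted p = 0.100. With a trend on transcript length removed, Mad and Dad passed the threshold, at 0.44 (adjusted p = 0.00229) and 0.66 (adjusted p = 0.0102). Over 16 alternatives the adjusted p lay between 0.00229 and 0.469 for Mad and between 0.0102 and 0.282 for Dad.

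The glypican gene dally (3L, 8827505 to 8891192, plus strand) showed the largest difference of the 8 genes. It had 41.0, 27.8 and 46.8 CPM in testes, against 191, 191 and 97.9 CPM in bam ovaries. The highest testis was below the lowest ovary by a wide margin, although bam ovary replicate 3 stood far below the other ovaries. The log2 fold change was -2.04 (SE 0.34, adjusted p = 0.00534), 4.13-fold lower in testes. The call held in all 16 alternatives, with log2 fold changes between -2.30 and -1.77 and adjusted p of at most 0.0369. It was -2.12 with testis replicate 2 and bam ovary replicate 3 both left out, and -1.77 with the trend on transcript length removed.

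**Figure D2:**
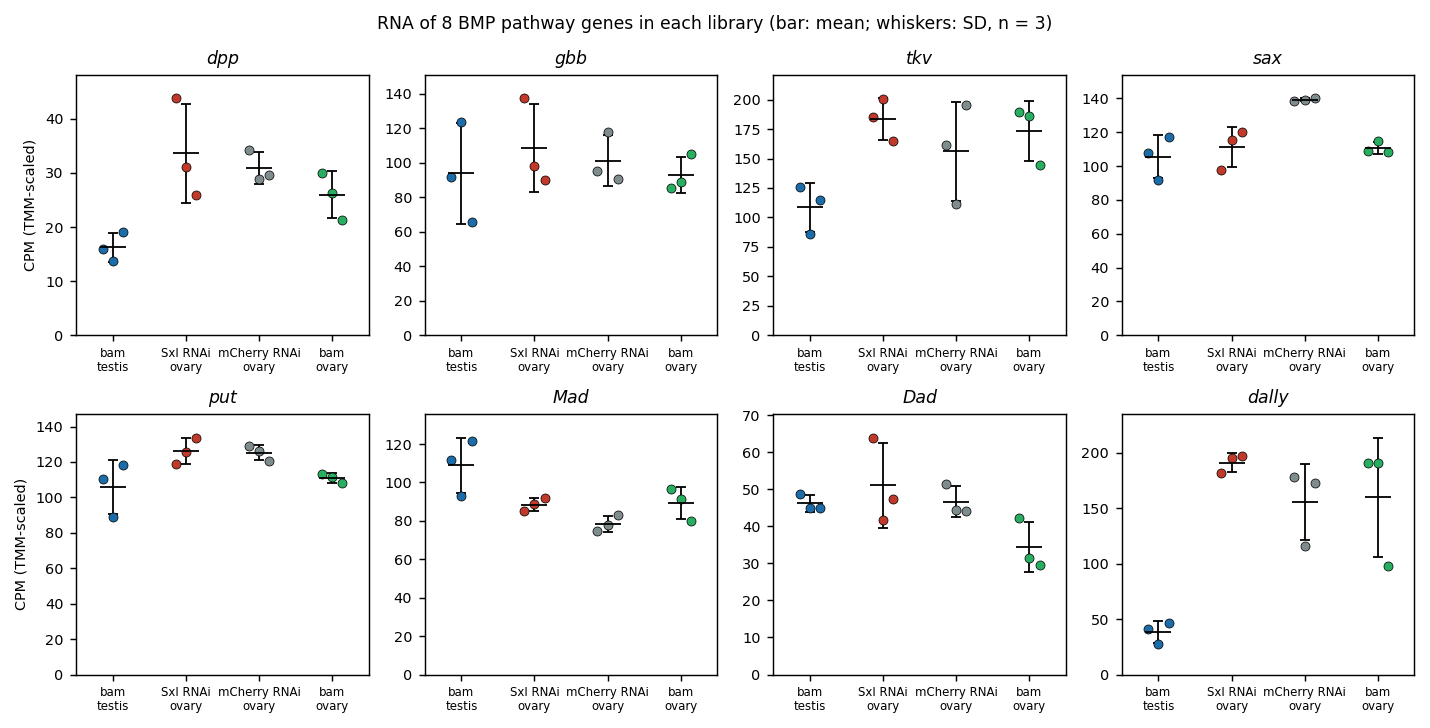
Level of each of the 8 genes in every library, in CPM (scaled by trimmed mean of M values), with 1 point per library, a bar for the mean and whiskers for the SD (n = 3). For dally the testes lie between 27.8 and 46.8 CPM and all ovaries at 97.9 CPM or above, whereas for gbb the groups overlap.

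Several lists of cell type markers differed in summed level between the same testes and bam ovaries. The counts of marker genes called stand beside 32.7% of 9738 genes called in this comparison and 16.3% called lower. All 8 muscle genes were lower in testes, summing to between 1082 and 1265 CPM in testes and between 7030 and 10623 CPM in bam ovaries. Of 6 tested genes of the ovarian terminal filament and cap cells, which are niche cells, 3 were lower and 1 was higher, with sums of 108 to 127 CPM in testes and 134 to 169 CPM in bam ovaries. The lower genes of that list were inv, LamC and Lmx1a, and the higher one was hh (log2 fold change 1.80). Lmx1a had no counts in 2 of 3 testes, but it reached only 2.00 to 2.81 CPM in bam ovaries. Of the 3 cyst cell genes 2 were lower (103 to 158 CPM in testes, 404 to 631 CPM in bam ovaries). Of the 4 hub genes 2 were lower and 1 was higher (139 to 180 CPM in testes, 411 to 588 CPM in bam ovaries). Most of the hub sum in bam ovaries was Fas3, at 388 to 535 CPM. The 7 follicle cell and yolk genes summed to between 28.3 and 45.1 CPM in testes and between 6247 and 7065 CPM in bam ovaries, with 6 lower. Of the 6 escort cell genes 2 were lower and 1 was higher (5642 to 7920 CPM in testes, 664 to 1084 CPM in bam ovaries), and most of the sum in testes was GstS1, at 4882 to 7429 CPM. Hemocyte genes, of which 2 of 6 were lower and 1 was higher, summed to between 667 and 816 CPM in testes and between 1141 and 1556 CPM in bam ovaries, and the fat body list had 1 of 4 lower (56.3 to 90.5 CPM in testes, 1035 to 1197 CPM in bam ovaries). The part of these cell types in the differences of dally and dpp was not tested. Some of the listed genes are expressed in both sexes, and hh stands in both the terminal filament and the hub list. A sum is therefore no count of the cells its list is named for. In these bulk samples, fewer cells of a type, less RNA per cell and RNA from other cell types cannot be told apart.

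Fold changes between the sexes also varied with exon length, although single libraries overlapped. In bam testes over bam ovaries the median log2 fold change was -0.31 for genes with at least 4000 exon bases and 0.19 for those with under 2000. Relative to the mean of all libraries, the median of the long genes minus that of the short ones was -0.40, -1.31 and 0.17 in testes. In bam ovaries it was 0.40, 0.36 and -0.48. The members dpp, dally, tkv and put have 5214, 4483, 4433 and 4013 annotated exon bases, and gbb, with 1686, is the shortest. Of these, dpp and dally were the called genes. With the trend removed, tkv (-0.40, adjusted p = 0.0193), Mad, Dad and dally (-1.77, adjusted p = 0.000216) passed and dpp did not. The adjusted p of tkv lay between 0.00986 and 0.170 over 16 alternatives. That fit called 4 of the 8 members, against 2 without it, and 4816 genes in all, against 3186.

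The comparison of Sxl RNAi with mCherry RNAi ovaries asked whether RNAi against Sxl, which lowered but did not abolish its RNA, shifts the pathway in bam ovaries. No member passed the test in edgeR, where 0.209% of 10059 genes did, or in DESeq2. At an unadjusted p under 0.05 edgeR gave 1 of 8 members, sax, against 11.7% of all genes. Values of the 2 groups did not overlap for sax, Mad and dally, 3 of 8 members, against 18.1% of all genes. The median log2 fold change was 0.14 for the members and 0.0067 for all genes tested.

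The receptor gene sax had 97.7, 116 and 120 CPM in Sxl RNAi ovaries, against 139, 139 and 140 CPM in mCherry RNAi ovaries. The mCherry RNAi ovaries lay within 0.015 of each other on the log2 scale, all above the Sxl RNAi ovaries, and the log2 fold change was -0.31 (SE 0.11, adjusted p = 0.341). Mad had 85.0, 88.7 and 91.8 CPM in Sxl RNAi ovaries and 74.8, 77.6 and 82.8 CPM in mCherry RNAi ovaries. The groups stood apart narrowly, with 85.0 and 82.8 CPM as their nearest values, and the log2 fold change was 0.19 (SE 0.087, adjusted p = 0.473). The co-receptor gene dally had 182, 195 and 197 CPM in Sxl RNAi ovaries and 178, 116 and 172 CPM in mCherry RNAi ovaries. Its lowest value was in mCherry RNAi replicate 2, and the log2 fold change was 0.31 (SE 0.17, adjusted p = 0.558).

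The other 5 members overlapped between the RNAi groups. The ligand gene dpp had 43.8, 31.0 and 26.0 CPM in Sxl RNAi ovaries and 34.2, 28.8 and 29.6 CPM in mCherry RNAi ovaries. Sxl RNAi replicate 1 was the highest of the 6 libraries, and without it the log2 fold change of 0.14 turned to -0.095. Sxl RNAi replicate 1 was also the highest of the 6 for gbb, at 137 CPM, and for Dad, at 63.9 CPM. The values of tkv were 185, 200 and 165 CPM in Sxl RNAi ovaries and 162, 112 and 195 CPM in mCherry RNAi ovaries. Among the 8 log2 fold changes, the narrowest 95% interval was that of Mad, -0.017 to 0.40, and the widest that of tkv, -0.24 to 0.74. The interval of sax, -0.57 to -0.054 and not adjusted for the number of genes, left out 0. Those of the other genes held 0.

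**Figure D3:**
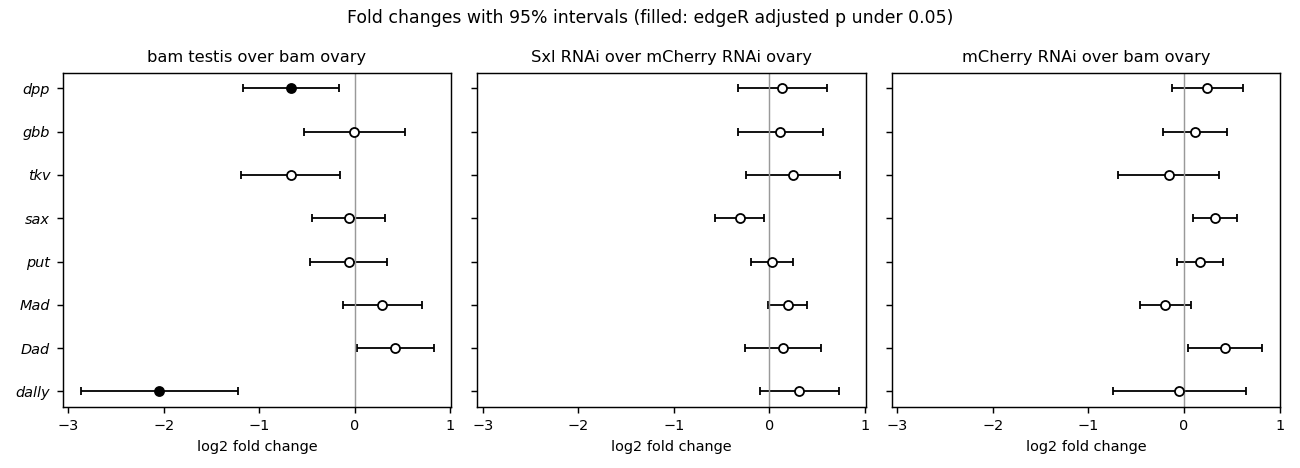
Log2 fold change of each of the 8 genes with its 95% interval from edgeR, for bam testes over bam ovaries, Sxl RNAi over mCherry RNAi ovaries and mCherry RNAi over bam ovaries. Filled points have an adjusted p under 0.05, which holds for dpp (-0.67) and dally (-2.04) in the first comparison and for no gene in the others.

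Whether the difference between sexes and the effect of Sxl RNAi differ from each other was tested as a contrast in an edgeR fit to all 12 libraries, in which the 2 effects share no sample. The contrast was lower than 0 for dally (-2.35, SE 0.39, adjusted p = 0.00106) and for tkv (-0.91, SE 0.30, adjusted p = 0.0462). These 2 of 8 members stand beside 25.6% of 10382 genes called for the same contrast, and 13.7% of the 10382 called below 0. For dally, the testis value lay 2.04 below the bam ovary value on the log2 scale, while the Sxl RNAi value lay 0.31 above the mCherry RNAi value. The difference of dpp did not pass (-0.79, SE 0.29, adjusted p = 0.0666). The call of dally held in all 21 alternatives, with adjusted p of at most 0.00378. That of tkv was lost in 12 of 21, with adjusted p between 0.0164 and 0.104.

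The ovaries with mCherry RNAi and those without RNAi differ in genotype, and their comparison shows how far 2 kinds of bam ovary lie apart. It shares the bam ovary libraries with the comparison of the sexes. No member passed in edgeR, against 6.11% of 9940 genes, and 2 of 8, sax and Dad, had an unadjusted p under 0.05, against 23.1% of all genes. DESeq2 called 1 member, sax, and it also called more genes in all than edgeR, as counted in the closing section. Values did not overlap for sax, put and Dad, 3 of 8 members, all higher with mCherry RNAi, against 16.9% of all genes that were higher without overlap and 31.3% in either direction.

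In this comparison sax had 139, 139 and 140 CPM in mCherry RNAi ovaries, against 109, 115 and 108 CPM in bam ovaries. The libraries of each group were close to each other and the groups apart. Its log2 fold change of 0.32 (SE 0.10) had an adjusted p = 0.109. DESeq2 gave an adjusted p of 0.0137, omission of mCherry RNAi replicate 2 and bam ovary replicate 3 gave 0.0218, and removal of the length trend gave 0.0425, within a range of 0.0137 to 0.337 over 16 alternatives. Dad had 51.5, 44.3 and 44.0 CPM in mCherry RNAi ovaries, against 42.2, 31.4 and 29.5 CPM in bam ovaries. Its log2 fold change was 0.43 (SE 0.17, adjusted p = 0.179), close to the 0.42 of testes over the same bam ovaries. For put the values were 129, 126 and 121 CPM in mCherry RNAi ovaries and 113, 112 and 108 CPM in bam ovaries (log2 fold change 0.17, SE 0.10). The values of dally were 178, 116 and 172 CPM in mCherry RNAi ovaries and 191, 191 and 97.9 CPM in bam ovaries, and the log2 fold change of -0.048 had a 95% interval of -0.74 to 0.64.

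Ordered over the 4 groups by mean CPM, testes were lowest for dpp, tkv, sax, put and dally, next to lowest for gbb and Dad, and highest for Mad. Of the 24 pairs of groups next to each other in these orders, 2 differed in the edgeR fit to all 12 libraries. In that fit 40.9% of 10382 genes were called for testes over bam ovaries, 0.414% for Sxl RNAi over mCherry RNAi ovaries, 5.93% for Sxl RNAi over bam ovaries and 6.30% for mCherry RNAi over bam ovaries. Bam ovaries were above testes for dpp (0.67 on the log2 scale, adjusted p = 0.0223), and mCherry RNAi ovaries were above testes for dally (2.01, adjusted p = 0.000167). Taking all pairs of groups, testes were lower than bam ovaries in the same edgeR fit for 3 members. These were dpp, tkv (-0.67, adjusted p = 0.0259) and dally (-2.05, adjusted p = 0.000169). For dally the order was Sxl RNAi, bam and mCherry RNAi ovaries, then testes, and the 3 groups of ovaries did not differ from their neighbours in it beyond their spread (adjusted p = 0.679 and 0.960). Dpp had the order Sxl RNAi, mCherry RNAi and bam ovaries, then testes. Against Sxl RNAi ovaries, testes were lower for 3 members, dpp (-1.05, adjusted p = 0.00172), tkv (-0.75, adjusted p = 0.0131) and dally (-2.31, adjusted p = 6.77e-05), where 48.1% of 10382 genes were called. Against mCherry RNAi ovaries, testes were lower for dpp (-0.93, adjusted p = 0.00342), sax (-0.40, adjusted p = 0.0152) and dally (-2.01) and higher for Mad (0.47, adjusted p = 0.00729), where 49.6% of genes were called. These comparisons share the testis libraries with that of testes over bam ovaries.

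Within groups, some members had their extreme values in the same library and others did not. The lowest of the 3 libraries was the same for dpp and tkv and for sax and Mad in all 4 groups. The highest was the same for put and dally in all 4 groups. These pairs were picked as the most alike among all pairs of members. With 3 libraries in a group some matches arise by chance, and no test was made. For dpp and Dad, ligand and inhibitor, the highest library was the same in 3 of 4 groups and the lowest in 1 of 4. The other ligand gene, gbb, shared its highest library with any other member in at most 1 of 4 groups and its lowest in at most 2. Testis replicate 2 was the lowest testis for dpp, tkv, sax, put, Mad and dally, and the highest for gbb. In mCherry RNAi replicate 2 and bam ovary replicate 3, dally stood 0.39 and 0.64 below its group mean on the log2 scale, and tkv 0.44 and 0.25 below. Testis replicate 2, mCherry RNAi replicate 2 and bam ovary replicate 3 are also the libraries in which long genes were lowest relative to short ones, and the part of length in these deviations was not tested.

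**Figure D4:**
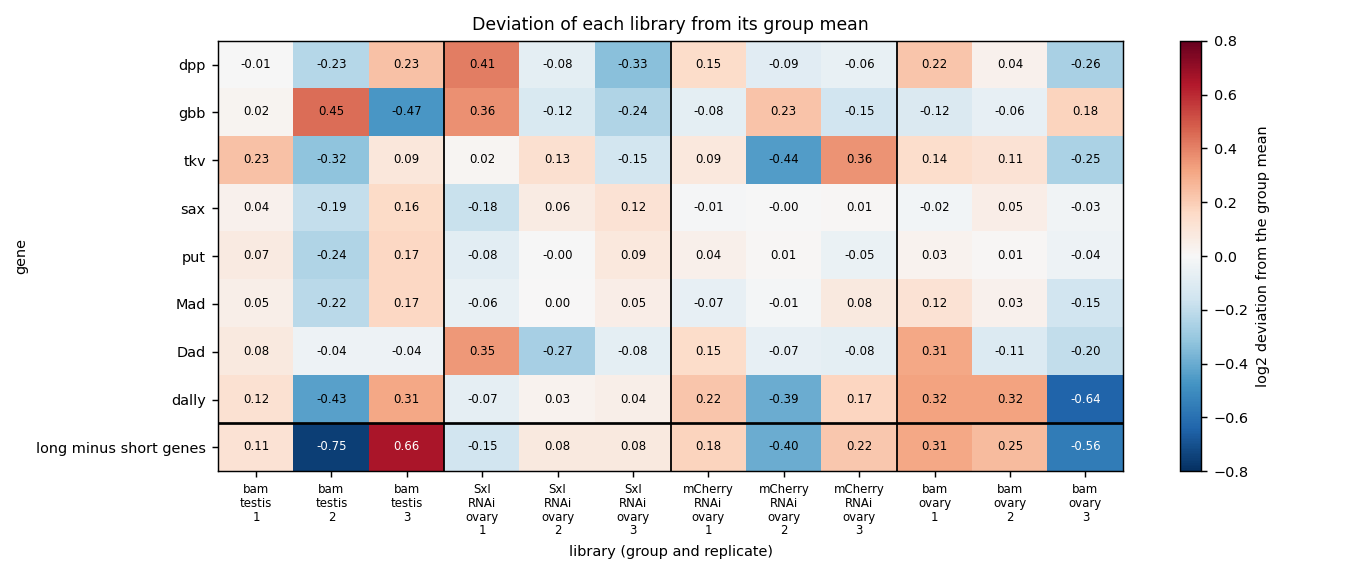
Deviation of each library from the mean of its group, on the log2 scale, for the 8 genes and, in the last row, for the median of genes with at least 4000 exon bases minus that of genes with under 2000. In testis replicate 2, mCherry RNAi replicate 2 and bam ovary replicate 3, dally and tkv are below their group means and the last row is at -0.75, -0.40 and -0.56.

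The genes whose profile over the 12 libraries was most like that of a member are given as a description, with Pearson's r of log2(CPM + 0.5) among 7783 genes with a mean of at least 5 CPM. The libraries share group means, depth and cell makeup, and r has no test here. For dally they were CG5004 (r = 0.996) and LanB1, a laminin subunit gene (r = 0.994), which averaged 238 CPM in testes, 1010 in Sxl RNAi ovaries, 884 in mCherry RNAi ovaries and 969 in bam ovaries. For dpp they were ETHR (0.967) and Proc-R (0.963), both peptide hormone receptor genes, and for tkv CG31915 (0.961) and ebo (0.946). For sax they were l(2)gd1 (0.962) and CG18011 (0.924), for put CG4022 (0.949) and CG9003 (0.941), and for Dad Ugt37D1 (0.912) and ham (0.909). For gbb and Mad the nearest genes with a symbol were CG17597 (0.960) and CG12241 (0.943).

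Beyond the 8 genes, 51 of 52 listed genes of the BMP and activin pathways matched an ID and 47 were tested in testes over bam ovaries. In testes 10 were lower and 2 were higher, 12 of 47, against the background of 32.7% given above. The count was 21 without testis replicate 3. Their median log2 fold change was -0.36, against 0.012 for all genes and -0.31 for all genes with at least 4000 exon bases. The part of transcript length in this median was not tested.

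Among 12 extracellular regulators, edgeR called 5 lower in testes, against 16.3% of all genes, and DESeq2 called 7 lower, against 19.7% of all genes. The gene sog, which encodes a secreted BMP antagonist, had 1.91, 1.23 and 3.77 CPM in testes, against 48.2, 42.8 and 18.8 CPM in bam ovaries. The testes did not approach the ovaries, and the log2 fold change was -3.95 (SE 0.56, adjusted p = 0.00259). The collagen IV genes vkg and Col4a1, whose proteins bind Dpp in the basement membrane, had log2 fold changes of -1.87 (SE 0.27) and -1.59 (SE 0.24). The collagen genes averaged 314 ± 40.0 and 530 ± 23.3 CPM in testes, against 1149 ± 323 and 1595 ± 422 CPM in bam ovaries (SD, n = 3). The remaining 2 were nord, a secreted modulator of BMP activity (-1.46, SE 0.19), and Fur2, a furin protease gene (-1.43, SE 0.26). The calls of these 5 genes held in all 16 alternatives. Of 9 heparan sulfate proteoglycan and enzyme genes, ttv (-1.29, adjusted p = 0.0248) and Sulf1 (-0.82, adjusted p = 0.0421) were lower, 2 of 9 by edgeR and 4 by DESeq2, against the same 16.3% and 19.7% of all genes. Both calls were lost without testis replicate 1 or bam ovary replicate 1 or 2, and that of Sulf1 also without testis replicate 2, with adjusted p of up to 0.0863 and 0.139 over 16 alternatives. The glypican gene dlp, the paralog of dally, gave -0.87 (SE 0.28, adjusted p = 0.0582, range over 16 alternatives 0.00384 to 0.179) and passed in 7 of them.

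Of 4 other ligand genes tested, 3 were lower in testes, also by DESeq2, against the same 16.3% and 19.7% of all genes. They were Actbeta, an activin (-3.35, SE 0.52, at 0.154 to 0.524 CPM in testes and 2.14 to 4.11 CPM in bam ovaries), mav (-1.09, SE 0.18) and myo (-0.74, SE 0.20). The calls of Actbeta and mav held in all 16 alternatives, and that of myo was lost in 5, among them those without testis replicate 1 or bam ovary replicate 1 or 2 (adjusted p of up to 0.118). Of the receptor genes, wit, a type II BMP receptor, was higher in testes (1.12, SE 0.25, adjusted p = 0.0163), with 51.6, 32.1 and 54.8 CPM in testes and 22.3, 23.4 and 18.4 CPM in bam ovaries, and babo was not called. The call of wit was lost in 5 of 16 alternatives, among them those without testis replicate 1 or any bam ovary (adjusted p of up to 0.0739). Of 11 intracellular inhibitors and regulators, edgeR called 0, against 32.7% of all genes. In edgeR 2 of them had an unadjusted p under 0.05, against 4271 of 9738 genes. DESeq2 called 2 of the 11 lower, against 19.7% of all genes. The 1 SMAD gene tested, Smox, gave -0.82 (SE 0.29, adjusted p = 0.0767, range over 16 alternatives 0.00327 to 0.207) in edgeR and was called lower by DESeq2. Of 8 nuclear factor and target genes, bam was higher (1.25, SE 0.15, adjusted p = 0.00115), with 21.3, 27.4 and 21.1 CPM in testes and 10.04, 9.11 and 9.89 CPM in bam ovaries, and all of these libraries carry bam mutations. DESeq2 called 1 of the 8 higher and 1 lower, where it called 19.7% of all genes lower. The genes wit, myo, ttv and Sulf1 lie outside the rule for named genes, as do dlp and Smox, and were named after their values were seen.

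**Figure D5:**
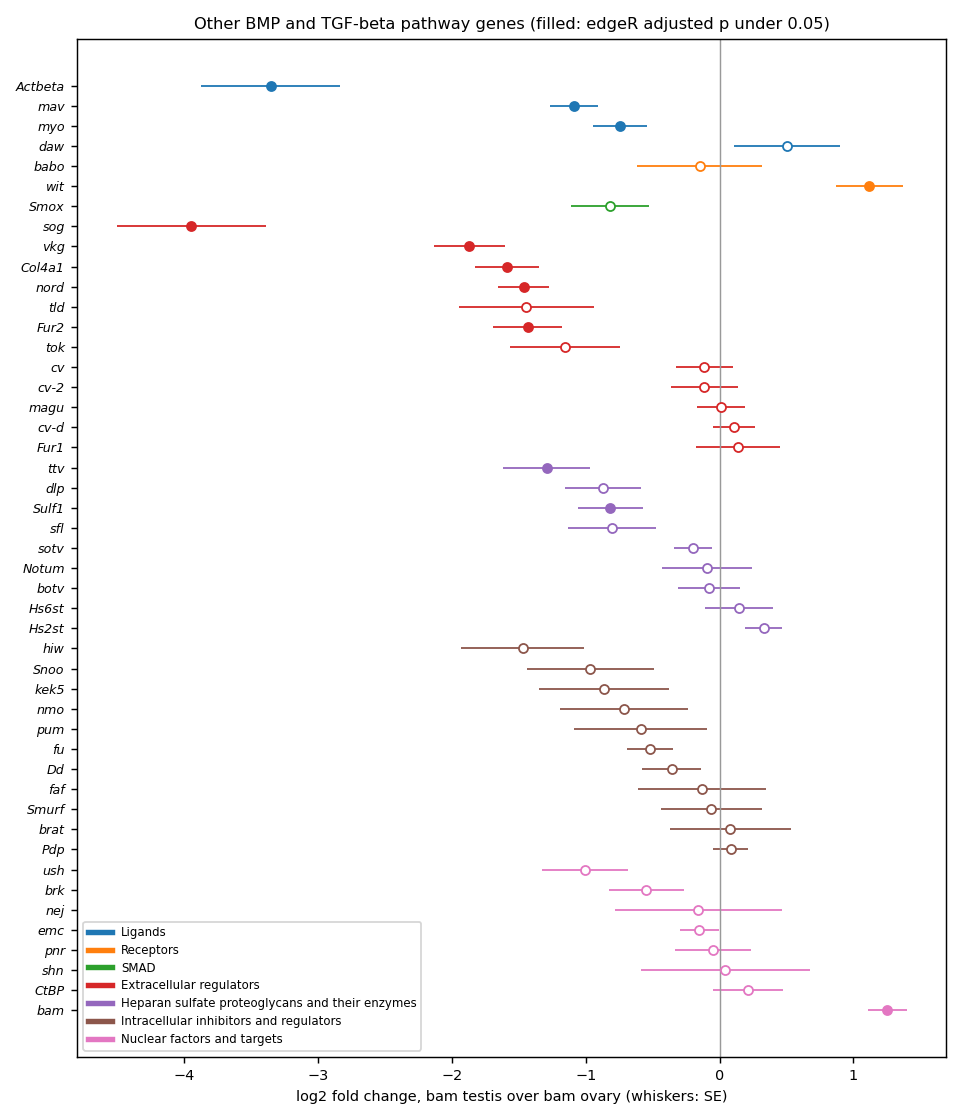
Log2 fold change (bam testes over bam ovaries) of the 47 other genes of the BMP and activin pathways that were tested, with the SE as whiskers and colours for their roles. Filled points have an edgeR adjusted p under 0.05, and of these 10 lie below 0, down to -3.95 for sog, and 2 above it, bam at 1.25 and wit at 1.12.

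In Sxl RNAi over mCherry RNAi ovaries none of 47 such genes was called by edgeR or DESeq2, against 0.209% of all genes in edgeR. At an unadjusted p under 0.05 there were 5 of 47, against 11.7% of all genes. In mCherry RNAi over bam ovaries 3 of 48 were called, against 6.11% of all genes, and 1 without mCherry RNAi replicate 1 or 3 or bam ovary replicate 1 or 2. The gene cv-2, which encodes a secreted BMP-binding protein, had 50.02, 49.92 and 39.7 CPM in mCherry RNAi ovaries, against 17.2, 18.7 and 14.3 CPM in bam ovaries (log2 fold change 1.47, SE 0.16, adjusted p = 0.00500). No library of either group came near the other group. The genes wit (0.63, SE 0.13, adjusted p = 0.0376) and bam (-0.92, SE 0.20, adjusted p = 0.0414) were higher and lower with mCherry RNAi. The call of cv-2 held in all 16 alternatives, while those of wit and bam were lost without any 1 of the 6 libraries, with adjusted p of up to 0.147 and 0.126. Of the 3, wit and bam were also called in testes over bam ovaries, a comparison that shares the bam ovary libraries.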

How the data were processed

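Each library has a file of raw read counts by gene ID, as deposited by the authors. Per the labels' protocols, 200 ng of RNA went into each and the kit keeps no strand information. The submitters' processing notes name TopHat2 2.1.1, Bowtie2 2.2.9, HTSeq 0.9.1, FastQC and DESeq, with build BDGP6. The strand setting and the release of the annotation were not stated in these sources. HTSeq's 5 summary lines, 12.0% to 17.1% of reads, were left out. Symbols matched 17253 of 17559 gene IDs. Positions and summed exon lengths are those of Ensembl's BDGP6 annotation.

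The members and gene lists were chosen with earlier results of these data known. Groups came from the titles. Each comparison was fitted to its own 6 libraries in edgeR 4.0.16 (R 4.3.3) with trimmed mean of M values scaling, filterByExpr and the robust quasi-likelihood test, adjusted by Benjamini-Hochberg over all genes. The script was tested on simulated data. Libraries of a group differed beyond counting noise (chi-square per degree of freedom at least 9.98), so none were merged. The labels call the replicates biological. Depth of 16152230 to 25097969 reads sets the counting precision.

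Named genes were all members, up to 8 other pathway genes per comparison with the smallest p among those called, and the 2 genes most like each member. Of these nearest genes, 2 have no symbol and are left out. The alternatives changed the tool (DESeq2 1.42.0), the scaling (upper-quartile or relative log expression), the filter (none, or 1 CPM in 3 libraries), the threshold (absolute log2 fold change also over 1) or the libraries fitted (all 12, or leaving out each replicate), or added a replicate block. Omission of the libraries that stand apart (testis replicate 2, Sxl RNAi replicate 1, mCherry RNAi replicate 2 and bam ovary replicate 3) and removal of a trend on exon length were chosen after seeing the data.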

Additional observations from a re-analysis of the deposited data

Results flagged for a closer look

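For 2 members the difference between the sexes and the effect of Sxl RNAi differed from each other in the edgeR contrast over all 12 libraries. They are 2 of 8 members tested, against 25.6% of 10382 genes called for the same contrast and 13.7% called below 0. For dally the difference was -2.35 on the log2 scale (adjusted p = 0.00106), from -2.04 in testes over bam ovaries and 0.31 in Sxl RNAi over mCherry RNAi ovaries, and it held in all 21 alternatives (adjusted p of at most 0.00378). For tkv it was -0.91 (adjusted p = 0.0462), from -0.67 and 0.25 in the same comparisons, and it was lost in 12 of 21 alternatives (adjusted p 0.0164 to 0.104).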

How the results depend on the processing

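In testes over bam ovaries, dally passed in all 16 alternatives. Leaving out 1 replicate at a time gave 1 to 2 members (1 without testis replicate 1 or 2 or bam ovary replicate 2), 1924 to 3539 genes in all and 8 to 21 other pathway genes. Members numbered 1 with no filter, with the replicate block and at an absolute log2 fold change over 1, and 4 with the length trend removed. Genes in all numbered 1696 with the replicate block and 4816 with the length trend removed. Other pathway genes numbered 20 with DESeq2, 21 with all 12 libraries, 22 with libraries that stand apart left out and 27 with the length trend removed. The sign of gbb turned with no filter (0.021) and with all 12 libraries (0.011), that of sax and put with libraries that stand apart left out (0.011 and 0.027) and with the length trend removed (0.016 and 0.15). Leaving out 1 replicate gave -0.23 to 0.18 for gbb, -0.17 to 0.032 for sax and -0.18 to 0.054 for put.

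In Sxl RNAi over mCherry RNAi ovaries, no alternative called a member. Genes in all numbered 327 with DESeq2, 39 with no filter, 43 with all 12 libraries, 3 with the replicate block, 366 with libraries that stand apart left out, 44 with the length trend removed, and 3 to 23 with 1 replicate left out. With libraries that stand apart left out, dpp and Dad turned to -0.15 and -0.091. With 1 replicate left out, dpp ranged from -0.095 to 0.29, gbb from -0.086 to 0.24, put from -0.021 to 0.069 and Dad from -0.048 to 0.27.

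In mCherry RNAi over bam ovaries, 1 member, sax, passed with DESeq2, with libraries that stand apart left out and with the length trend removed. Genes in all numbered 1262, 1808 and 1398 and other pathway genes 5, 11 and 8 under these settings. The replicate block gave 93 genes and 1 other pathway gene, and a log2 fold change over 1 left 1. With 1 replicate left out there were 153 to 388 genes and 1 to 2 other pathway genes, gbb ranged from -0.024 to 0.22, tkv from -0.35 to 0.021 and dally from -0.30 to 0.12.

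For the contrast of the sex difference with the effect of Sxl RNAi, members numbered 1 with no filter, with the replicate block and at a log2 fold change over 1, and 1 to 3 with 1 replicate left out. Put turned to 0.12 with the length trend removed and ranged from -0.16 to 0.029 with 1 replicate left out, and gbb from -0.34 to 0.12. The cause of these shifts was not tested.

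Deviations from the group mean in same-numbered libraries correlated at 0.046, -0.40 and -0.60 in testes and bam ovaries. They correlated at -0.15, -0.34 and 0.074 in the RNAi ovaries, and at 0.39, -0.41 and -0.29 in mCherry RNAi and bam ovaries. Libraries with different numbers reached 0.54, 0.30 and 0.58 in the same comparisons. Those pairs are libraries that stand apart, so these correlations cannot decide whether replicate numbers pair the samples. The replicate block is given as counts and within the ranges of adjusted p over alternatives. Precision is limited by 3 libraries a group and, for the lowest member and library, by 178 counts.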
